A study of Mus musculus with 2 samples.

Results

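Mir99a, Mir99b, Mir100, Mir125a, Mir125b-1 and Mir125b-2 are the microRNA genes that stand beside a let-7 gene in 3 paralogous clusters of the mouse genome. They were taken by symbol, as 6 of the 2202 microRNA genes counted, and each of the 6 passed the detection minimum of 10 reads in replicate 1 and in replicate 2. MicroRNA-seq had been run on 2 hippocampal tissue libraries (the labels say a layer of hippocampus). Both are from male adults, 8 to 10 months of age, whose strain is given as 5xFAD/CAST. 5xFAD is a transgenic model of Alzheimer disease whose transgenes are driven by the neuronal Thy1 promoter, and CAST is a wild-derived strain. The labels give no genotype beyond the strain name, no control group, and a single donor record shared by 2 separate tissue records. The libraries may therefore come from the same animal or from different ones, and their spread may be technical.

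MicroRNAs are short RNAs that guide Argonaute proteins to messenger RNAs, mainly through the seed at bases 2 to 8 from their 5′ end. The miR-125 genes are the vertebrate counterparts of lin-4, which with let-7 times development in Caenorhabditis elegans, and both microRNAs are known to repress Lin28, itself a brake on let-7 maturation. The miR-99 and miR-100 genes belong to the ancient miR-10 family and are known to repress components of mTOR signalling. In brain, miR-125b is known as a regulator of dendritic spines that acts with the fragile X protein FMRP.

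The mature strands from the 5′ arm show why the genes form a pair of seed groups and why the main strand of 2 of the 6 cannot be told apart. They are from RefSeq on GRCm38.p6, the assembly that mm10 names, and the seed is in capitals. RefSeq mature strands were found for all 6 genes.
miR-99a-5p (Mir99a): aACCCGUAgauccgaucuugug
miR-100-5p (Mir100): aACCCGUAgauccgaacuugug
miR-99b-5p (Mir99b): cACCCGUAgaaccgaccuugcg
miR-125a-5p (Mir125a): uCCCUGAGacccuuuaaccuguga
miR-125b-5p (Mir125b-1 and Mir125b-2): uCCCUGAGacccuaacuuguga
miR-351-5p (Mir351): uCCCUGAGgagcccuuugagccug
miR-10a-5p (Mir10a): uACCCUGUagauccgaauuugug
miR-10b-5p (Mir10b): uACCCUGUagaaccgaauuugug
Positions are counted from 1 at the 5′ end, with the base of the first-named strand written first. The strands of miR-99a and miR-100 are the same in 21 of 22 bases and differ by U16A. Those of miR-99a and miR-99b are the same in 18 and differ by A1C, U11A, U16C and U21C. All 3 carry the seed ACCCGUA, which no other gene of the RefSeq table has. The seed CCCUGAG of the 3 miR-125 genes also occurs in Mir351, Mir6367 and Mir6394. The strands of miR-125a, of 24 bases, and miR-125b, of 22, share their first 13 bases. Mir10a and Mir10b are related by sequence but have another seed.

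The opposite arms are less alike and carry other seeds, again in capitals.
miR-99a-3p (Mir99a): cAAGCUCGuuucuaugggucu
miR-99b-3p (Mir99b): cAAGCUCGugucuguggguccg
miR-100-3p (Mir100): aCAAGCUUgugucuauagguau
miR-125a-3p (Mir125a): aCAGGUGAgguucuugggagcc
miR-125b-1-3p (Mir125b-1): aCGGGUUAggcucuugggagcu
miR-125b-2-3p (Mir125b-2): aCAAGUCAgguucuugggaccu
The seed AAGCUCG is common to the 3′ arms of Mir99a and Mir99b, and each of the other 4 genes has a 3′ seed of its own. No gene of the RefSeq table outside the 6 has any of these 3′ seeds. Counts are per hairpin gene, so reads of the 5′ and 3′ arms were not separated here.

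Mir125b-1 and Mir125b-2 encode the same 5′ strand, and their hairpins share 24 bases in a row. In the hairpin of Mir125b-1, the stretch that also occurs in Mir125b-2 is in capitals, and it holds the whole of miR-125b-5p. In the hairpins of Mir99a and Mir100 the capitals mark their 16 shared bases, which stop short of the base that separates the mature strands.
Mir125b-1 hairpin: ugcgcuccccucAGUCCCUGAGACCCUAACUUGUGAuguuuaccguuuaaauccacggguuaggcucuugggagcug
Mir99a hairpin: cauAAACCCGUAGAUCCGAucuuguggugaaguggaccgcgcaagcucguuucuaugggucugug
Mir100 hairpin: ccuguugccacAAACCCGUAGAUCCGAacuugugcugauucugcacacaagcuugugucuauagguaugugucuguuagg
A read of miR-125b-5p fits both genes exactly, and the deposited tables list multiply placed reads as a total without gene names. The counts of Mir125b-1 and Mir125b-2 are therefore uncertain, and a low count does not show that miR-125b was scarce in the tissue. The other 4 members share at most 16 bases in a row with any other microRNA gene at another place (Mir99b 11, Mir125a 14). Without an exact copy, miR-99a-5p and miR-100-5p are still within 1 mismatch of each other. The sources used here do not say how many mismatches the aligner allowed.

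The 3 clusters have the same gene order, miR-99 or miR-100 first, then let-7, then miR-125, each wholly on the plus strand of mm10. The cluster on chromosome 16 holds Mir99a (ENSMUSG00000065530.1, 77598936 to 77599000), Mirlet7c-1 and Mir125b-2 (ENSMUSG00000065472.1, 77646273 to 77646343). They lie in introns of Mir99ahg, a noncoding host gene. Mir99a and Mirlet7c-1 also lie opposite an intron of the protein-coding gene Gm11146, and Mir125b-2 also overlaps an exon of the unconfirmed transcript C130023A14Rik. On chromosome 9 stand Mir100 (ENSMUSG00000093011.1, 41531425 to 41531504), Mirlet7a-2 and Mir125b-1 (ENSMUSG00000093354.1, 41581926 to 41582002). These lie in introns of the noncoding genes 3110039I08Rik and Gm49317. Mir100 also lies opposite an exon of the noncoding gene Gm48742, and Mir125b-1 overlaps an exon of the sense intronic transcript Gm28119. The compact cluster on chromosome 17 holds Mir99b (ENSMUSG00000065396.1, 17830188 to 17830257), Mirlet7e and Mir125a (ENSMUSG00000065479.2, 17830812 to 17830879) within 692 bp. Its genes lie in Spaca6, a protein-coding gene, with Mir99b and Mirlet7e in an intron and Mir125a over an exon of a Spaca6 transcript. From the start of the first hairpin, the miR-125 gene began 47.3 kb away on chromosome 16, 50.5 kb on chromosome 9 and 0.624 kb on chromosome 17.

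Of all reads, 9713924 in replicate 1 and 8551453 in replicate 2, a total of 3421977 (35.2%) and 2820468 (33.0%) were assigned to a microRNA gene. Levels are given as CPM, in which these assigned reads are scaled to 1000000. Multiply placed reads made up 41.6% of replicate 1 and 38.2% of replicate 2, and unmapped reads 16.6% and 22.6%. The brain neuron marker microRNAs were detected for 6 of 10 genes and took 2.87% and 2.72% of assigned reads, with Mir124a-2 and Mir124a-3, which share sequence with a copy, at 0. The striated muscle markers (3 of 8 detected, 0.00374% and 0.00262%) and the liver marker Mir122 (0.00307% and 0.00358%) were low. The muscle genes Mir1a-1 and Mir133a-2 were at 0, but they too have copies in their list, so these counts are uncertain. Markers of other cells moved in both directions between the libraries. In replicate 1 and replicate 2 the 2 oligodendrocyte genes took 0.503% and 0.666%, the 3 astrocyte and glia genes 3.88% and 3.48%, the 5 microglia and leukocyte genes 0.407% and 0.346%, and the 3 erythroid genes 0.00476% and 0.00599%, all of them detected. The 3 endothelial and mural genes, all detected, took 2.17% and 1.32%, the 4 choroid plexus and ependyma genes, all detected, 0.338% and 0.161%, and the 8 epithelial genes, 6 of them detected, 0.0712% and 0.0111%. These sums hide genes of a list that moved apart. In replicate 2, Mir338 was higher and Mir219a-2 lower among the oligodendrocyte genes. Among the astrocyte and glia genes Mir29a was higher and Mir23b and Mir21a lower. Among the choroid plexus and ependyma genes Mir449a was higher, Mir204 and Mir34c lower, and Mir211 almost unchanged. None of the genes in these 7 lists was at 0 in both libraries, and their part in the differences given here was not tested.

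The 6 genes together held 144383 reads in replicate 1 and 128773 in replicate 2. These were 4.22% (exact Clopper-Pearson 95% interval 4.20 to 4.24) and 4.57% (4.54 to 4.59) of assigned reads, or 4.39% ± 0.245 (SD, n = 2). The sum was slightly higher in replicate 2, by more than counting error. Intervals cover counting error only, since reads without molecular identifiers are not independent molecules. With their let-7 partners, the 9 genes of the clusters took 7.40% and 7.22%.

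The miR-99 and miR-100 genes held most of these reads. Mir99a, Mir99b and Mir100, with the seed ACCCGUA, took 3.44% and 2.98% of assigned reads (3.21% ± 0.328). The 3 miR-125 genes, with the seed CCCUGAG, took 0.778% and 1.59% (1.18% ± 0.572). The miR-99 and miR-100 genes were thus 81.6% of the members' reads in replicate 1 and 65.2% in replicate 2. The miR-125 share lacks any read of miR-125b-5p that was set aside as fitting several places.

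Mir99a was the highest of the 6 in both libraries, with 76621 reads (22391 CPM) in replicate 1 and 58650 reads (20794 CPM) in replicate 2. It ranked 10 and 9 among all 2202 genes, and its mean was 21593 ± 1129 CPM. Mir99b had 25853 reads (7555 CPM) and 14549 reads (5158 CPM), with a mean of 6357 ± 1695 CPM. Mir100 had 15284 reads (4466 CPM) and 10794 reads (3827 CPM), with a mean of 4147 ± 452 CPM. All 3 were lower in replicate 2, and their order was the same in both libraries. The ranges of the 3 genes did not overlap.

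Mir125a was the highest of the miR-125 genes, with 22058 reads (6446 CPM) in replicate 1 and 41505 reads (14716 CPM) in replicate 2. Its mean was 10581 ± 5848 CPM, and it moved from rank 29 to rank 13. It was the only member that was higher in replicate 2, and its SD, 55.3% of its mean, was the largest of the 6. Mir125b-1 had 3373 reads (986 CPM) and 2359 reads (836 CPM), with a mean of 911 ± 106 CPM. Mir125b-2 had 1194 reads (349 CPM) and 916 reads (325 CPM), with a mean of 337 ± 17.1 CPM. These copies, which share the 24-base stretch, were the lowest members in both libraries, and their ranges did not overlap. Their reads together came to 0.133% and 0.116% of assigned reads.

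**Figure D1:**
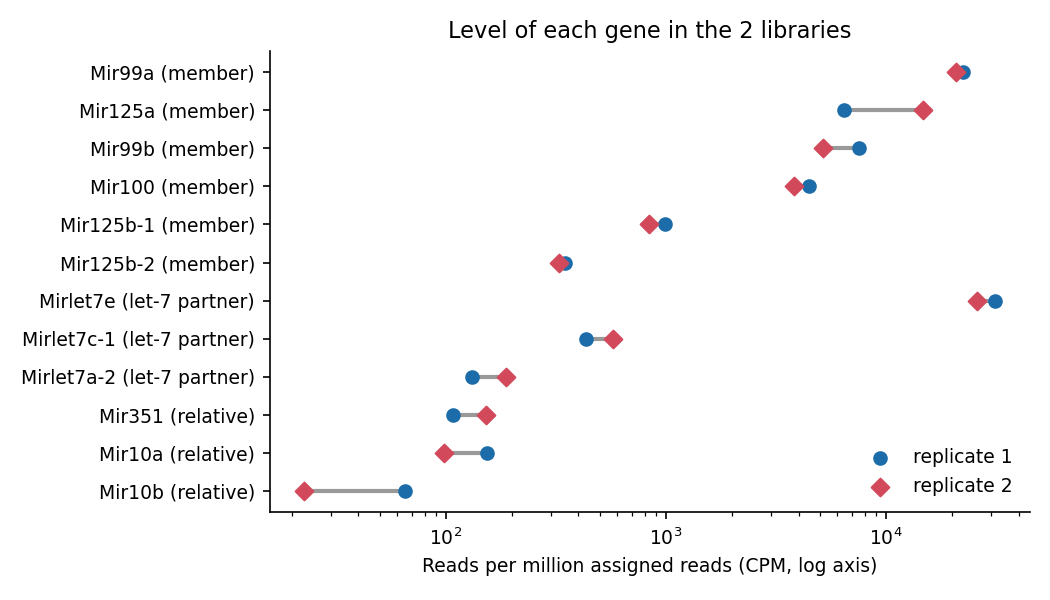
Level of the 6 members, their let-7 partners and 3 relatives by sequence, in CPM on a log axis. Circles are replicate 1, diamonds replicate 2, and the grey line joins them. Mir99a lies near 21593 CPM in both libraries, while Mir125a moves from 6446 to 14716 CPM and crosses Mir99b.

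By mean CPM the order was Mir99a, Mir125a, Mir99b, Mir100, Mir125b-1 and Mir125b-2. Of the 5 neighbouring pairs in this order, the pair Mir125a and Mir99b overlapped in range. Mir99b was 1.17-fold above Mir125a in replicate 1 and Mir125a was 2.85-fold above Mir99b in replicate 2. Among the neighbours without overlap, Mir99a was 3.47-fold above Mir125a in replicate 1 and 1.41-fold in replicate 2. Mir99b was 1.69-fold and 1.35-fold above Mir100. Mir100 was 4.53-fold and 4.58-fold above Mir125b-1, and Mir125b-1 was 2.82-fold and 2.58-fold above Mir125b-2. A microRNA read comes from a mature strand of 21 to 24 bases, so the levels of genes are set side by side as reads. The order of mean reads per base of hairpin was the same.

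The genes related by sequence were far lower. Mir351, a rodent miR-125 relative on the X chromosome, had 108 and 153 CPM (130 ± 31.6). Mir10a and Mir10b, the miR-10 genes of the Hox clusters, had 154 and 97.5 CPM (126 ± 39.7) and 65.2 and 22.7 CPM (43.9 ± 30.0). The 3 together took 0.0327% and 0.0273% of assigned reads. Each was below the lowest member, Mir125b-2 (349 and 325 CPM), in both libraries. The count of Mir125b-2 is itself uncertain, because its 5′ strand has a copy. Mir6367 and Mir6394, the other genes with the CCCUGAG seed, had 0 reads in both libraries, which allows up to 0.877 CPM in replicate 1 and 1.06 CPM in replicate 2 (3 reads).

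The let-7 partners differed strongly between the clusters. Mirlet7e, beside Mir99b, had 106973 reads (31261 CPM) and 72805 reads (25813 CPM), above all 6 members in both libraries. Mirlet7c-1, beside Mir99a, had 431 and 573 CPM, and Mirlet7a-2, beside Mir100, had 132 and 187 CPM. Mirlet7c-1 and Mirlet7a-2 each share 23 bases with a copy on another chromosome (Mirlet7c-2 and Mirlet7a-1), so their counts are uncertain too. Mirlet7e shares at most 17 bases in a row with a microRNA gene at another place. Its strand let-7e-5p is still within 1 mismatch of Mirlet7a-1 and Mirlet7a-2, and the mismatches that the aligner allowed are not known. In the chromosome 16 cluster the reads were nearly all of Mir99a, and in the chromosome 9 cluster mostly of Mir100. On chromosome 17 the 3 genes lay between 5158 and 31261 CPM.

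**Figure D2:**
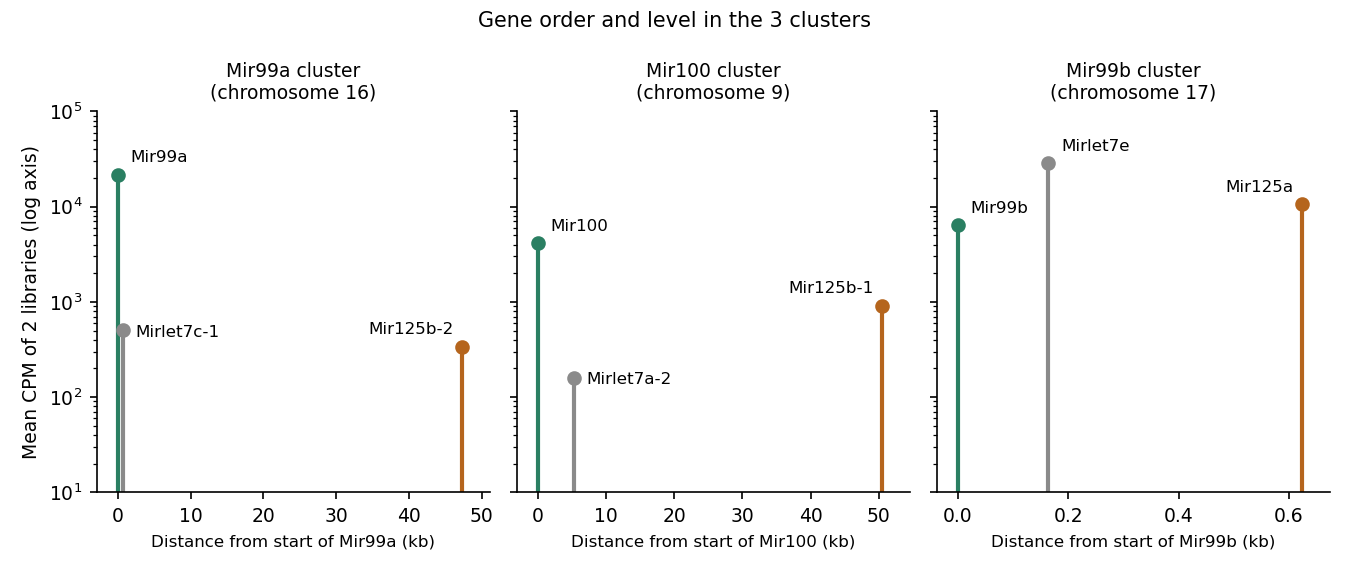
Mean CPM of the 2 libraries (log axis) against distance from the start of the miR-99 or miR-100 gene in kb, for the clusters on chromosomes 16, 9 and 17. Green marks miR-99 or miR-100, grey let-7 and brown miR-125. The first gene leads on chromosomes 16 and 9, and Mirlet7e leads on chromosome 17, where the distances are about 0.624 kb at most.

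Ratios of counts within a library do not depend on library size. Mir125b-2 over Mir99a was 0.0156 in replicate 1 and 0.0156 in replicate 2, so that Mir99a stood 64.2-fold and 64.0-fold above it. On the log2 scale these were -6.00 (exact 95% interval -6.09 to -5.92) and -6.00 (-6.10 to -5.91). Mir125b-1 over Mir100 was 0.221 and 0.219, or -2.18 (-2.23 to -2.13) and -2.19 (-2.26 to -2.13) on the log2 scale. Both ratios moved by less than their counting error between the libraries. The genes of these pairs start 47.3 and 50.5 kb apart. Between clusters, Mir125b-1 over Mir125b-2 shifted by -0.13 on the log2 scale, and its intervals in the libraries overlapped. Mir99b over Mir100 shifted by -0.33 and Mir99a over Mir125a by -1.30. A small shift was thus not particular to genes of the same cluster. The counts of Mir125b-1 and Mir125b-2 lack any read of miR-125b-5p that was set aside as fitting several places.

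Mir125a over Mir99b, genes whose starts are 0.624 kb apart, was 0.853 in replicate 1 and 2.85 in replicate 2. On the log2 scale this was -0.23 (-0.26 to -0.20) and 1.51 (1.49 to 1.54), a 3.34-fold change of the ratio between the libraries. The mean log2 ratio of 0.64 had an SD of 1.23 (n = 2), so which gene of this pair is higher was not settled by these libraries. In each library the log2 ratio of miR-125 to miR-99 or miR-100 gene was higher on chromosome 9 than on chromosome 16, by 3.82 and 3.81. It was higher on chromosome 17 than on chromosome 9, by 1.95 and 3.71. The library shift of Mir125a over Mir99b, 1.74, was smaller than these differences, and those of the other pairs were 0.0032 and -0.014. The miR-125 genes on chromosomes 16 and 9 have a copied mature strand and Mir125a has none, and the part of this in the difference was not tested.

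The let-7 partners did not keep the same ratio in the libraries. Mirlet7e was 4.14-fold above Mir99b in replicate 1 and 5.00-fold in replicate 2. Mirlet7c-1 was 52.0-fold below Mir99a and then 36.3-fold below it. Mirlet7a-2 was 34.0-fold below Mir100 and then 20.4-fold. All 3 ratios of let-7 to miR-99 or miR-100 were thus higher in replicate 2, by 0.27, 0.52 and 0.73 on the log2 scale. Their intervals in the libraries did not overlap. The counts of Mirlet7c-1 and Mirlet7a-2 lack any read that was set aside as fitting several places. Across the 3 genes of the chromosome 17 cluster the sum was nearly the same, at 4.53% of assigned reads in replicate 1 and 4.57% in replicate 2, while the level of Mir125a was higher and those of Mir99b and Mirlet7e lower in replicate 2.

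**Figure D3:**
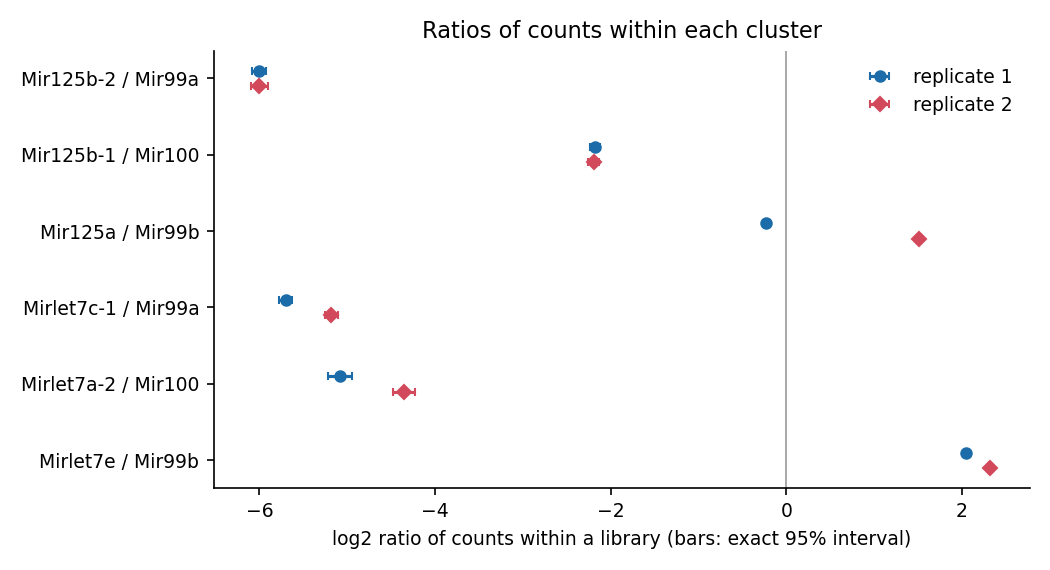
log2 ratio of counts within a library for miR-125 over miR-99 or miR-100 (upper 3 lines) and let-7 over miR-99 or miR-100 (lower 3). Circles are replicate 1 and diamonds replicate 2, and bars are exact 95% intervals. The ratios of the first 2 lines coincide in the libraries, and Mir125a over Mir99b moves from -0.23 to 1.51.

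The libraries were then compared for each gene by a two-sided exact binomial test of its 2 counts, given the TMM-scaled sizes of the libraries. The p-values were adjusted over all 389 detected genes by the Benjamini-Hochberg method. A pass means that counting error alone does not cover the difference of these libraries, and no conditions are compared. All 6 members passed at an adjusted p below 0.05, against 67.6% of detected genes, so a pass says little about these genes. Mir125a was higher in replicate 2, in a direction called for 33.9% of detected genes, and the other 5 were lower, in a direction called for 33.7%. The median log2 ratio of replicate 2 over replicate 1 was -0.26 in the 6 genes and 0.053 in all 389. The median size of the log2 ratio was 0.33 in the members and 0.52 in all detected genes. These sets were not matched for level, as the median of mean CPM was 5252 in the members and 105 in all detected genes.

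Mir125a had a log2 ratio of 1.09 (95% interval 1.07 to 1.12), or 2.13-fold, and was the only member called with a change of at least 2-fold, as 22.4% of detected genes were. By the size of its ratio it ranked 71 of 389. Mir99b followed with -0.65 (-0.68 to -0.62), at rank 156. Mir125b-1 had -0.34 (-0.41 to -0.26; adjusted p = 8.6e-18 by the exact binomial test) and Mir100 -0.32 (-0.36 to -0.29). Mir99a had -0.21 (-0.22 to -0.19) and Mir125b-2 -0.20 (-0.33 to -0.077; adjusted p = 0.0025 by the exact binomial test), at ranks 307 and 311. With assigned reads as library sizes in place of TMM, Mir125b-2 no longer passed, with a log2 ratio of -0.10 and an adjusted p of 0.14 by the same binomial test. With the spread of the 2 libraries as the error, none of the 6 passed edgeR's exact test, at adjusted p = 1 for each, where 0.514% of detected genes passed. None of the 6 had an unadjusted p below 0.05 in that test, and the lowest was 0.21, for Mir125a. Since that error includes the difference under test, this does not show that the libraries held the same levels.

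**Figure D4:**
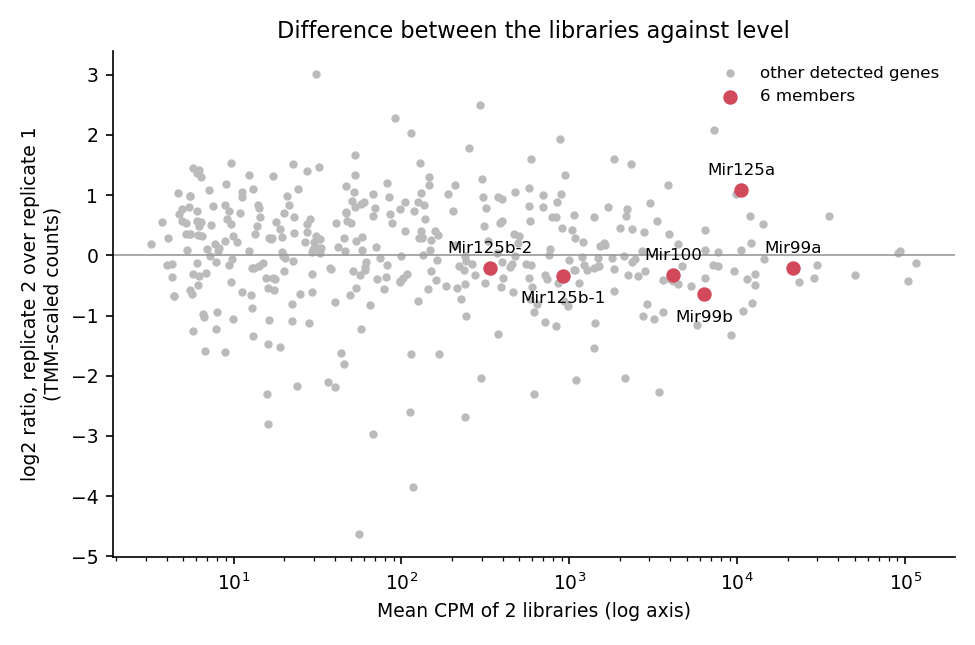
log2 ratio of replicate 2 over replicate 1 (TMM-scaled counts) against mean CPM on a log axis for the 389 detected genes. Grey points are the other genes and red points the 6 members. Of the members 5 lie between -0.65 and -0.20, and Mir125a lies at 1.09.

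Hairpin GC content was 67.1% for Mir99b, 60.3% for Mir125a, 53.2% for Mir125b-1, 52.3% for Mir99a, 47.9% for Mir125b-2 and 47.5% for Mir100. The members with the highest GC content, Mir99b and Mir125a, moved in opposite directions, and the part of GC content was not tested. Of 106 pairs of detected neighbours on 1 strand within 10 kb, the median size of the difference of their log2 ratios was 0.71. Genes that are not neighbours were not set beside these pairs. Mirlet7e and Mir125a, 367 bp apart, differed by 1.47, and 18 pairs (17.0%), this pair included, differed by at least as much. Mir99b and Mirlet7e, 94 bp apart, differed by 0.27, which 79.2% of pairs reached. Mir99a and Mirlet7c-1 differed by 0.52, which 65.1% of pairs reached, and Mir100 and Mirlet7a-2 by 0.73, which 49.1% reached.

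With 2 libraries a pattern holds little more than a level, and likeness was measured as the distance of log2(CPM + 1) over both. Nearest to Mir99a was Mir23b, of the miR-23 to miR-24 cluster, at a distance of 0.22 (23271 ± 3941 CPM), then Mirlet7e at 0.57. Mir125a was nearest to Mir92b at 0.13, which had 6232 and 13535 CPM, and then to Mir330 at 0.47. Mir99b was nearest to Mir382 at 0.20 and Mir361 at 0.35, and Mir100 to Mir411 at 0.071 and Mir30d at 0.10. Mir125b-1 was nearest to Mir540 at 0.17 and Mir29c at 0.27, and Mir125b-2 to Mir31 at 0.049 and Mir421 at 0.23.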

How the data were processed

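Each library came as a deposited table of raw counts by microRNA gene, with 3 columns that the authors made: unstranded reads, reads matching the gene's strand, and reads on the other strand. Per the deposited text notes, the genome build was mm10 and the annotation GENCODE M21. The aligner, counter, trimming, treatment of multiply placed reads and any allowance for the CAST strain were not given in the sources used here. The column that matches the gene's strand was used. Rows that name no gene held 64.8% and 67.0% of reads and stayed out of library sizes and tests. A count of 1 is 0.292 or 0.355 CPM.

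Symbols, positions and hairpins came from GENCODE M21, and printed sequences from RefSeq on GRCm38.p6. Stretches were searched on both strands of the tables' microRNA genes that lie elsewhere, with 20 bases or more called shared. TMM factors and the exact test used edgeR 4.0.16 in R 4.3.3, size factors DESeq2 1.42.0, and binomial tests scipy 1.17.1. The binomial test and its interval were tried on simulated counts with known changes and counting error only. Those counts lack the further spread of real libraries, and edgeR's exact test was not tried on them. Named genes were all members, their partners and relatives, and the 2 detected genes nearest to each in level. The members and lists were chosen with earlier results of these data known. Alternatives were the strand column, library size, normalization, minimum count, test, hairpin length, pseudocount, stretch length and each library alone.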

Additional observations from a re-analysis of the deposited data

How the results depend on the processing

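Of all 2202 genes, 389 had at least 10 reads in both libraries and 241 at least 100. All 6 members were detected with at least 1, 10 or 100 reads, without regard to strand and in each library alone. Their summed share was 1.50% of all reads, 6.70% of assigned reads without let-7 and miR-98 genes, 4.70% of reads counted without regard to strand, and 4.22% to 4.57% in the libraries alone. All 6 differed between the libraries under the strand, size factor and minimum count alternatives, and 5 with assigned reads as library sizes. By edgeR's exact test 0 differed, where the error includes the difference under test, and 0.514% of detected genes passed. Of all genes tested, 67.0% were called without regard to strand, 69.7% with DESeq2 size factors and 67.1% with assigned reads as library sizes. Directions held for all 6 genes under every scaling run, with log2 ratios of 1.04 to 1.19 for Mir125a and -0.70 to -0.55 for Mir99b. Without regard to strand 364 genes could be tested, without a filter 756 (37.3% called), and with at least 100 reads 241 (86.3% called).

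Replicate 1 alone put Mir99b above Mir125a, a log2 ratio of Mir125a over Mir99b of -0.23 against 0.64 over both and 1.51 in replicate 2; the other 4 neighbouring pairs kept their order. Per base of hairpin, the log2 ratios were -6.13 for Mir125b-2 over Mir99a, -5.97 for Mirlet7c-1 over Mir99a, -2.13 for Mir125b-1 over Mir100 and 1.78 for Mirlet7e over Mir99b, which follows from the hairpin lengths. The same 2 members shared sequence at 18, 20 and 22 bases. No ratio of Mirlet7e could be had without regard to strand, where it is listed at 0. The comparison of the libraries cannot leave a library out. No paired analysis was possible because there is 1 group.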

Other observations

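Mirlet7e, the partner between Mir99b and Mir125a, depends wholly on the strand column. It had 106973 and 72805 reads on its own strand and 0 and 0 in the column that disregards strand. Another annotated microRNA gene, Gm25927, covers it on the opposite strand, and the reads listed as ambiguous without regard to strand came to 234489 in replicate 1 and 176310 in replicate 2. No annotated microRNA gene overlaps any of the 6 members, though genes of other kinds do on the opposite strand (Gm48742 at Mir100, Gm11146 at Mir99a). The members' counts were the same in both columns.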
